A study of Gallus gallus with 16 samples.

Results

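DEPTOR, UCHL1, ST8SIA2, EHD3 and EVI2A are 5 genes of chicken HD11 cells that are described here across the treatments of the experiment. They were chosen because each of them differed in all 5 of the study's comparisons between groups, and they are 5 of the 6492 transcripts in the deposited table. In the fits used here, 69 transcripts were called in all 5 comparisons (1.58% of the 4356 tested in each of them), 21 of the 69 carried a gene symbol, and the 5 genes are among these 21. The study asked how the plant polyphenol procyanidin B1 (PB1), a dimer of flavan-3-ol units, alters the response of the cells to lipopolysaccharide (LPS), the outer membrane component of Gram-negative bacteria. RNA-seq libraries were made from 16 samples, 4 in each of 4 groups: LPS + PB1 (PB1 followed by LPS), LPS alone, PB1 alone and CTR (neither agent). LPS was used at 100 ng/mL, and by the methods PB1 was used at 100 μg/mL for 12 h before it. The labels give 6 h of LPS and the methods give 12 h, the treatment protocol of the labels, shared by the 4 groups, also names 100 μM of SeMC in the medium, and the methods name fewer replicates than the 4 libraries per group of the labels. HD11 is a single transformed chicken line grown without other cells, and nothing in the sources says whether the 4 libraries of a group came from separate cultures, so that p-values below measure only the spread between these libraries.

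The label describes the line as macrophage-like. Of 41 macrophage markers looked for, 4 are reported here. MRC1 and CYBB had 3 reads or fewer in each of the 16 libraries, FCER1G had at most 4 reads and SLC11A1 at most 5. Of 29 mesenchymal or fibroblast markers 9 were found by symbol. Predicted transcripts carry no symbol, so genes not found, here and in the lists below, may still be in the table. The summed signal of the 9 was 79100 to 95400 in LPS + PB1, 94600 to 118000 in LPS, 81800 to 85300 in PB1 and 102000 to 114000 in CTR. COL1A2 alone had 69136 to 190398 reads per library. The 9 did not move alike. COL1A2 had 69136 to 72283 reads in PB1 and 170162 to 190398 in CTR, whereas VIM had 120590 to 137112 in PB1 and 90058 to 101721 in CTR. The labelled identity was therefore not seen in these 4 macrophage markers, and it cannot be checked further from the markers reported here. Of 21 neural markers 3 were found by symbol, and their summed signal was 16.7 to 34.7 in LPS + PB1, 28.1 to 44.7 in LPS, 320 to 341 in PB1 and 71.2 to 97.3 in CTR. That sum was carried by NES, whereas NEFM, with 0 to 5 reads in LPS + PB1, 15 to 46 in LPS, 0 to 3 in PB1 and 1 to 4 in CTR, was highest in LPS, and SOX2 had at most 1 read. The part of marker levels in any result was not tested.

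The 5 genes serve different functions in the cell. DEPTOR is a small protein that, in mammalian cells, binds the kinase mTOR in both of its complexes and holds its activity down, and is itself removed through phosphorylation and ubiquitin. UCHL1 is a ubiquitin C-terminal hydrolase, very abundant in neurons, that frees ubiquitin from small adducts and keeps single ubiquitin in supply. ST8SIA2 is a Golgi sialyltransferase that builds long chains of sialic acid, chiefly on the adhesion molecule NCAM in the embryonic brain. EHD3 is an ATPase of the EH-domain family that shapes endosomal membrane tubules and helps to carry cargo from early endosomes to the recycling compartment. EVI2A, named after a viral integration site in mouse leukaemias, encodes a small membrane protein whose gene lies, in mammals, inside an intron of NF1, the gene of a RAS-inhibiting protein.

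The reads recovered from the deposited values, as described under processing, numbered 4173989 to 4414942 per library. This is more than the average number of reads per sample that the paper gives, and the sources used here do not explain the difference. Levels are given as normalized signal, that is, deposited values brought to a common total of 1e+06 with TMM factors (trimmed mean of M values). The summed marker signals above differ from this. They are deposited values per 1e+06 of each library's total over the whole table, without TMM factors. Each value contains 1 read added before deposit, which raises the lowest levels and shrinks the largest ratios, and read numbers without it are given where few reads were present. Values are not divided by transcript length, so levels are compared between groups and not between genes. A call in a comparison required a fold of 1.5 or more (0.58 on the log2 scale) and a Benjamini-Hochberg adjusted p from limma not above 0.05. In LPS + PB1, LPS and CTR, replicates 1 and 2 resembled each other, and so did replicates 3 and 4, far more than libraries of different pairs did. A chi-square over reads, divided by its degrees of freedom, was 3.70 to 6.82 inside the pairs of LPS + PB1 and 59.98 to 64.4 across them. The values for LPS were 2.80 to 2.86 inside and 35.6 to 38.3 across, those for PB1 1.49 to 5.32 inside and 4.62 to 12.4 across, and those for CTR 1.17 to 4.77 inside and 20.04 to 22.8 across. No source names these pairs as batches, and values within each pair are given below.

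All 5 genes passed the filter on low values in every comparison. Because the comparisons chose them, the differences between groups are given as a description, with no test. In LPS against CTR, where 16.8% of 4514 transcripts tested were called, DEPTOR and UCHL1 were called higher (background 9.97%) and ST8SIA2, EHD3 and EVI2A lower (6.82%). In PB1 against CTR, with 20.9% of 4485 called, ST8SIA2 was called higher (10.5%) and the other 4 lower (10.4%). LPS + PB1 against CTR, with 17.7% of 4495 called, had DEPTOR and UCHL1 higher (9.17%) and the other 3 lower (8.52%). LPS + PB1 against LPS, with 17.6% of 4546 called, had UCHL1 and EHD3 higher (7.37%) and DEPTOR, ST8SIA2 and EVI2A lower (10.2%). LPS + PB1 against PB1, with 29.4% of 4518 called, had DEPTOR, UCHL1 and EHD3 higher (14.5%) and ST8SIA2 and EVI2A lower (14.9%). The libraries of the groups compared did not overlap in 24 of these 25 cases, the exception being EVI2A in LPS + PB1 against LPS. Groups did not overlap for 34.1%, 42.2%, 33.4%, 34.7% and 47.0% of all transcripts tested in the 5 comparisons in the order above. Since the genes were selected on these contrasts, nothing is read from their counts. The comparisons share groups and are not separate observations. The plot of levels by library shows that each gene ordered the 4 groups in its own way.

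**Figure D1:**
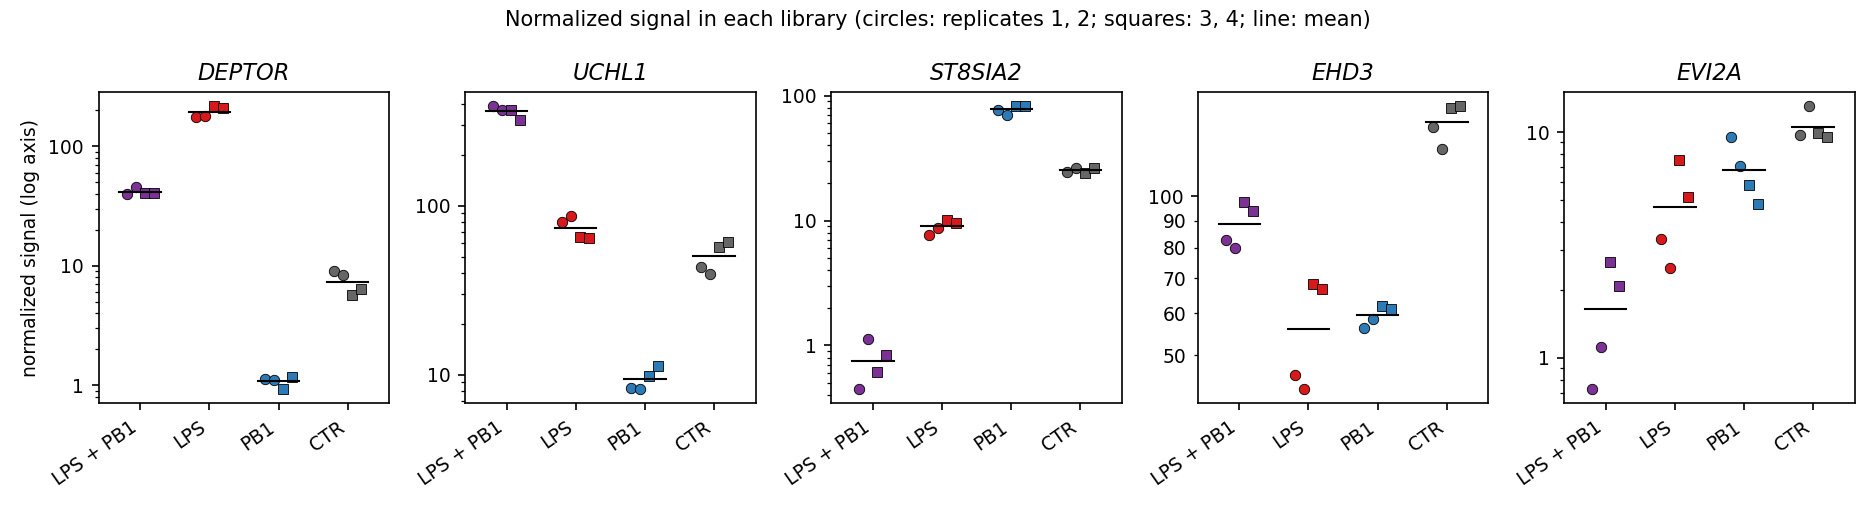
Normalized signal (log axis, total of 1e+06 per library) of the 5 genes in each of the 16 libraries, by group, with circles for replicates 1 and 2, squares for replicates 3 and 4 and a line at the mean of 4. DEPTOR peaks in LPS (mean 195), UCHL1 in LPS + PB1 (361), ST8SIA2 in PB1 (77.9), and EHD3 and EVI2A in CTR (138 and 10.5).

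DEPTOR (NM_001199502.2) lies on chromosome 2 at 135701378 to 135774444 of GRCg7b, overlaps no other annotated gene, and is the 1 of its 5 RefSeq transcripts that is in the table. It was highest in LPS and close to absent in PB1. In replicates 1 to 4 the signal was 40.0, 45.2, 40.2 and 40.5 in LPS + PB1, 177, 178, 216 and 209 in LPS, 1.12, 1.11, 0.93 and 1.17 in PB1, and 9.0, 8.3, 5.7 and 6.4 in CTR. The 4 groups were fully separate, in the order LPS, LPS + PB1, CTR, PB1. The means were 41.5 ± 2.47 in LPS + PB1, 195 ± 20.5 in LPS, 1.08 ± 0.108 in PB1 and 7.35 ± 1.55 in CTR (SD, n = 4 each).

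On the log2 scale DEPTOR was higher by 4.76 (SE 0.16) in LPS than in CTR, a 27.1-fold difference and the 22nd largest of 4514 in that comparison. PB1 alone differed from CTR by -2.75 (SE 0.25) and LPS + PB1 from CTR by 2.54 (SE 0.16). LPS + PB1 was 4.68-fold lower than LPS (log2 -2.23, SE 0.09). LPS + PB1 against PB1 gave 5.28 (SE 0.15). LPS against PB1 gave 7.49 (SE 0.13), the 9th largest difference of 4529. The PB1 libraries held 4, 4, 3 and 4 reads, a sum of 15 with an exact Poisson 95% interval of 8.4 to 24.7. By summed reads per depth, LPS exceeded PB1 228-fold (95% interval 138 to 409), LPS + PB1 exceeded PB1 48.1-fold (29 to 86.5), and CTR exceeded PB1 8.36-fold (4.87 to 15.4). These intervals, from an exact binomial, cover counting error only.

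Of the mTOR complexes and their regulators, 6 of the 54 genes listed were found by symbol in the table (EIF4EBP2, LAMTOR3, NPRL2, RPS6, SKP1 and USP7) and all 6 were tested. The others may be among the predicted transcripts, which carry no symbol. mTOR itself and the other subunits were not analysed here. The only call among these 6 genes in 6 comparisons, LPS against PB1 included, was RPS6, the ribosomal protein phosphorylated downstream of mTOR, which fell in LPS + PB1 against PB1 (log2 -0.71, SE 0.12, limma adjusted p 0.000592). Its signal averaged 1122 ± 107 in LPS + PB1 and 1862 ± 257 in PB1 (SD, n = 4 each), and 29.4% of all transcripts were called in that comparison. In at least 1 of the 6 comparisons 44.0% of 4648 transcripts were called. The RPS6 call was lost in replicates 3 and 4 only (-0.56). The median log2 difference of the 6 lay between -0.07 and 0.11 in the 6 comparisons, against -0.01 to 0.01 for all transcripts tested. A second gene of the list was called in LPS + PB1 against PB1 without LPS + PB1 replicate 1 or 2 (2 genes each), and 1 gene in LPS + PB1 against CTR without LPS + PB1 replicate 1 and in LPS against PB1 without LPS replicate 1 or 2.

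UCHL1 (NM_001080212.2) lies on chromosome 4 at 68158945 to 68163595 and has 1 RefSeq transcript. Its span overlaps the end of APBB2, and since strand was not stated for the counting, reads of both genes there cannot be told apart. Its highest level was in LPS + PB1 and its lowest in PB1 alone. The signal in replicates 1 to 4 was 388, 368, 366 and 322 in LPS + PB1, 80.0, 87.3, 65.1 and 63.9 in LPS, 8.33, 8.24, 9.79 and 11.3 in PB1, and 43.5, 39.6, 56.6 and 60.7 in CTR. LPS + PB1 stood far above the rest and PB1 far below, while LPS and CTR were neighbours that did not overlap by a narrow margin (63.9 against 60.7). The means were 361 ± 27.7 in LPS + PB1, 74.1 ± 11.5 in LPS, 9.40 ± 1.43 in PB1 and 50.1 ± 10.2 in CTR (SD, n = 4 each).

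The log2 differences of UCHL1 were 2.89 (SE 0.14) for LPS + PB1 against CTR, 2.29 (SE 0.11) for LPS + PB1 against LPS and 5.29 (SE 0.12) for LPS + PB1 against PB1, the last being 39.1-fold. PB1 against CTR gave -2.41 (SE 0.16) and LPS against PB1 gave 2.98 (SE 0.14). LPS against CTR, at 0.59 (SE 0.15), was just past the fold limit. That value was 1.01 within replicates 1 and 2 but 0.14 within replicates 3 and 4, and the call was lost in 10 of 17 alternative settings, among them leaving out LPS replicate 1 or 2 or CTR replicate 1 or 2 (0.48 to 0.55) and the fit with the replicate number as a block.

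Of 59 deubiquitinase and ubiquitin genes listed, 7 were found by symbol and tested (COPS5, PSMD14, UBB, USP1, USP13, USP7 and VCPIP1). Of these 7, limma called 0 in the 6 comparisons, with 1 to 3 of the 7 at an unadjusted p under 0.05 in each. Their median log2 difference lay between -0.09 and 0.05, against -0.01 to 0.01 for all transcripts. One of them was called in LPS + PB1 against PB1 without PB1 replicate 4. Of the 4648 transcripts tested in any of the 6 comparisons, 44.0% were called in at least 1. UBB, a gene of ubiquitin itself, was among the 7 not called.

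ST8SIA2 (NM_001001604.2) lies on chromosome 10 at 14513606 to 14539806 and overlaps no annotated gene, and 1 of its 2 RefSeq transcripts is in the table. Its order of groups was the mirror image of that of UCHL1. The signal in replicates 1 to 4 was 0.45, 1.12, 0.61 and 0.84 in LPS + PB1, 7.69, 8.76, 10.2 and 9.50 in LPS, 77.3, 69.5, 82.3 and 82.6 in PB1, and 24.5, 26.3, 23.9 and 26.3 in CTR. The groups were fully separate, with PB1 highest, then CTR, LPS and LPS + PB1. The means were 0.756 ± 0.291 in LPS + PB1, 9.02 ± 1.06 in LPS, 77.9 ± 6.10 in PB1 and 25.2 ± 1.22 in CTR (SD, n = 4 each).

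PB1 alone thus gave more ST8SIA2 than CTR (log2 1.62, SE 0.09, 3.07-fold) and PB1 together with LPS less than LPS (log2 -3.65, SE 0.32). LPS against CTR was -1.48 (SE 0.13) and LPS against PB1 -3.11 (SE 0.12). Its largest differences were LPS + PB1 against CTR at -5.12 (SE 0.28), and LPS + PB1 against PB1 at -6.75 (SE 0.26), each the 13th largest of its comparison. The LPS + PB1 libraries held 1, 4, 2 and 3 reads, a sum of 10 (exact Poisson 95% interval 4.8 to 18.4), against 1340 reads in PB1. By summed reads per depth, the level in PB1 was 144 times that in LPS + PB1 (exact 95% interval 78.2 to 301), that in CTR 46.4 times (24.99 to 97.5) and that in LPS 16.4 times (8.68 to 34.9). These intervals too cover counting error only. The alternatives changed no call of ST8SIA2 or DEPTOR in the 5 comparisons.

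Of 39 sialic acid and polysialic acid genes listed, 5 were found by symbol and 4 were tested in at least 1 comparison (CCR7, NANP, NANS and ST3GAL2). Counts by direction are given with the share of all transcripts tested in parentheses. In LPS against CTR 1 of 3 was called higher (9.97%), and in PB1 against CTR 1 of 4 (10.5%). Called lower were 1 of 3 in LPS + PB1 against LPS (10.2%) and 1 of 4 in LPS + PB1 against PB1 (14.9%). In LPS against PB1, where 25.1% of all transcripts were called, 1 of 4 was higher (13.9%) and 1 lower (11.2%). With 3 or 4 genes tested, nothing is read from these counts. NANS, the synthase that makes sialic acid, rose in LPS against CTR (log2 0.68, SE 0.10, adjusted p 0.000625) and fell in LPS + PB1 against LPS (log2 -1.04, SE 0.13, adjusted p 0.000321), both by limma. Its signal averaged 55.2 ± 7.51 in LPS + PB1, 113 ± 12.8 in LPS, 70.7 ± 13.3 in PB1 and 71.2 ± 5.59 in CTR (SD, n = 4 each). The NANS call in LPS against CTR was lost in replicates 1 and 2 only (0.46). Its call in LPS + PB1 against LPS was lost with the means of replicate pairs (limma adjusted p 0.0692). CCR7 is a chemokine receptor that carries polysialic acid on mammalian dendritic cells. It was higher in PB1 than in CTR (log2 2.54, SE 0.36) and lower in LPS + PB1 than in PB1 (log2 -3.81, SE 0.42). It had 1 to 6 reads per library in LPS + PB1, 2 to 8 in LPS, 33 to 46 in PB1 and 2 to 9 in CTR. CCR7 thus passed the low-value filter only through PB1, and only in comparisons that include PB1 alone. Its differences are therefore a description with no test. PB1 was the highest group for CCR7, as for ST8SIA2, and nothing is read from this. The median of the list lay between -0.30 and 0.19 over 3 or 4 genes.

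EHD3 (NM_001031040.2) lies on chromosome 3 at 7898435 to 7923637, has 1 RefSeq transcript, and overlaps the long noncoding RNA LOC112532054 at its edge, where reads of the 2 cannot be told apart. Its level in LPS + PB1 lay between those of CTR and of either agent alone. The signal in replicates 1 to 4 was 82.7, 79.9, 97.6 and 93.8 in LPS + PB1, 45.9, 43.2, 68.2 and 66.7 in LPS, 56.3, 58.6, 62.0 and 61.2 in PB1, and 135, 123, 147 and 148 in CTR. CTR was above the other groups in each library and LPS + PB1 second, whereas LPS and PB1 overlapped, with the LPS libraries on both sides of the PB1 ones. The means were 88.5 ± 8.52 in LPS + PB1, 56.0 ± 13.3 in LPS, 59.5 ± 2.58 in PB1 and 138 ± 11.9 in CTR (SD, n = 4 each).

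The log2 differences of EHD3 were -1.32 (SE 0.16) for LPS against CTR, -1.22 (SE 0.08) for PB1 against CTR and -0.62 (SE 0.10) for LPS + PB1 against CTR. LPS + PB1 exceeded LPS by 0.69 (SE 0.17) and PB1 by 0.59 (SE 0.09). LPS against PB1 differed by -0.11 (SE 0.15), and its sign turned to 0.02 without LPS replicate 2. The value for LPS + PB1 against PB1 lies at the fold limit and lost its call in 8 of 17 alternatives, among them leaving out LPS + PB1 replicate 3 or 4 or PB1 replicate 1 or 2 (0.54 to 0.57). The call of LPS + PB1 against CTR was lost without LPS + PB1 replicate 2 (-0.57) and that of LPS + PB1 against LPS without LPS replicate 2 (0.57) and in replicates 3 and 4 only (0.51). Both were also lost with the means of replicate pairs.

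Of 64 genes of the EHD family and endocytic recycling listed, 10 were found by symbol and tested. ARF6, a GTPase of the recycling route, was the only one of the 10 called in the 6 comparisons. Of the 4648 transcripts tested in any of them, 44.0% were called in at least 1. ARF6 fell in LPS + PB1 against PB1 (log2 -1.01, SE 0.08, limma adjusted p 2.34e-06), where EHD3 was the higher and 29.4% of all transcripts were called. ARF6 averaged 180 ± 14.3 in LPS + PB1, 268 ± 27.2 in LPS, 368 ± 12.8 in PB1 and 263 ± 31.2 in CTR (SD, n = 4 each). Medians of the list lay between -0.15 and 0.17, and 1 to 6 of the 10 had an unadjusted limma p under 0.05 in each comparison. The number called in LPS + PB1 against PB1 was 3 without LPS + PB1 replicate 1 and 2 without LPS + PB1 replicate 2 or PB1 replicate 4. In LPS + PB1 against LPS it was 2 without LPS + PB1 replicate 1 and 1 without LPS + PB1 replicate 2 or 4 or LPS replicate 3 or 4, and in LPS + PB1 against CTR it was 1 without LPS + PB1 replicate 1 and 2 without CTR replicate 3. With all libraries, 29.4%, 17.6% and 17.7% of all transcripts were called in these comparisons, in the order given.

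EVI2A (NM_001080893.2) lies on chromosome 19 at 9511105 to 9514668, within the span of NF1, and has 1 RefSeq transcript. Any NF1 reads over this stretch cannot be told from its own. It had 2 to 54 reads per library and was highest in CTR. The signal in replicates 1 to 4 was 0.73, 1.12, 2.65 and 2.09 in LPS + PB1, 3.35, 2.5, 7.52 and 5.16 in LPS, 9.46, 7.08, 5.82 and 4.80 in PB1, and 9.69, 13.0, 9.9 and 9.5 in CTR. CTR did not overlap with PB1 by a narrow margin (9.46 in PB1 against 9.5 in CTR). PB1 and LPS overlapped, and the highest LPS + PB1 library (2.65) was above the lowest LPS library (2.5). The means were 1.65 ± 0.880 in LPS + PB1, 4.63 ± 2.22 in LPS, 6.79 ± 2.01 in PB1 and 10.5 ± 1.67 in CTR (SD, n = 4 each).

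The log2 differences of EVI2A were -2.82 (SE 0.39) for LPS + PB1 against CTR, -1.28 (SE 0.32) for LPS against CTR and -0.67 (SE 0.21) for PB1 against CTR. LPS + PB1 differed from LPS by -1.54 (SE 0.50) and from PB1 by -2.16 (SE 0.41), and LPS against PB1 gave -0.62 (SE 0.34). The 4 libraries of LPS + PB1 summed to 26 reads, against 78 in LPS, 114 in PB1 and 170 in CTR. By summed reads per depth the level in CTR was 7.10 times that in LPS + PB1 (exact 95% interval 4.68 to 11.2). The call in LPS + PB1 against LPS was kept in 3 of 8 fits that left out a library and lost without LPS + PB1 replicate 1 (-1.20) or 2 (-1.41) or LPS replicate 1 (-1.66), 3 (-1.27) or 4 (-1.45). The call in PB1 against CTR was lost without PB1 replicate 3 (-0.61) or 4 (-0.52) or CTR replicate 2 (-0.57), and also in replicates 1 and 2 only (-0.47), with all 16 libraries in one fit and with the means of replicate pairs. LPS against CTR lost its call in replicates 3 and 4 only (-0.62) and with the means of pairs, which also ended that of LPS + PB1 against LPS.

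The nearest gene of the table with a symbol to EVI2A is EVI2B, 1.04 kb away at 9515704 to 9518229 and also inside NF1. EVI2B encodes a membrane protein known from leukocytes. EVI2B had a different order of groups, with 1.18, 1.12, 3.33 and 3.82 in LPS + PB1, 6.01, 8.49, 13.5 and 14.7 in LPS, 0.89, 1.11, 1.14 and 0.69 in PB1, and 2.74, 2.33, 4.70 and 4.33 in CTR. LPS was the highest group and PB1 the lowest, at 2 to 4 reads per library. It rose in LPS against CTR (log2 1.59, SE 0.34, limma adjusted p 0.00547), where EVI2A was lower, and it fell in LPS + PB1 against LPS (log2 -2.31, SE 0.49, limma adjusted p 0.00685). LPS against PB1 gave 3.43 (SE 0.32), where EVI2B passed the low-value filter only through LPS, so that value is a description with no test. LPS + PB1 against CTR gave -0.72 (SE 0.47, limma adjusted p 0.28). Its call in LPS + PB1 against LPS and the one in LPS against CTR were lost with the means of replicate pairs (limma adjusted p 0.163 and 0.0928), the highest values over the 17 alternatives, whose lowest were 3.73e-06 and 2.8e-05. In LPS, LPS + PB1 and CTR, replicates 3 and 4 of EVI2B were each above replicates 1 and 2, and in LPS + PB1 and LPS the same held for EVI2A.

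**Figure D2:**
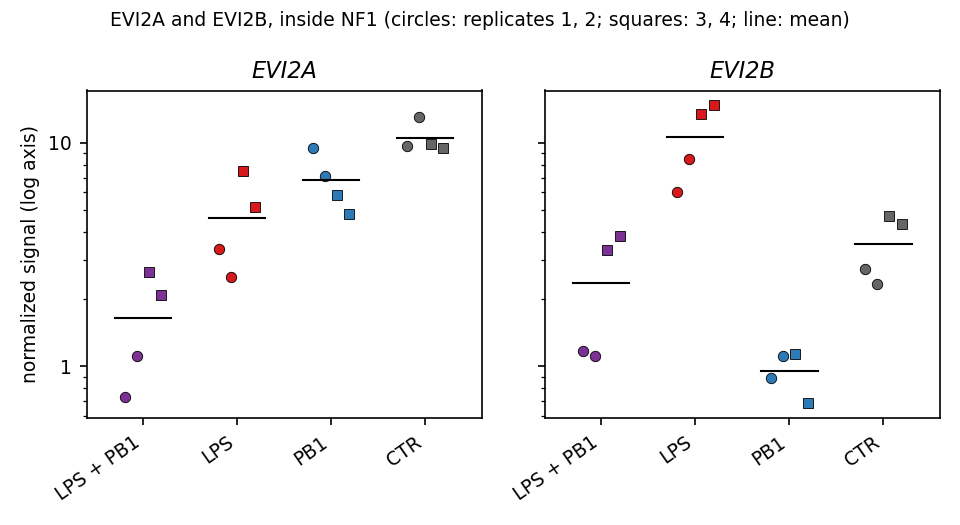
Normalized signal (log axis, total of 1e+06 per library) of EVI2A and of its neighbour EVI2B in the 16 libraries, by group, with circles for replicates 1 and 2, squares for replicates 3 and 4 and a line at the mean of 4. EVI2A is highest in CTR (mean 10.5) and EVI2B in LPS (mean 10.7).

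Of 30 genes of the NF1 locus and the RAS pathway listed, 6 were found by symbol (DUSP4, EVI2B, MAP2K1, MAPK3, NRAS and SPRY2). Of these 6, 4 were called in at least 1 of the 6 comparisons, as were 44.0% of the 4648 transcripts tested in any of them. The largest differences were in EVI2B, DUSP4 and SPRY2. By direction, 1 was higher and 1 lower of those tested in LPS against PB1, in LPS + PB1 against LPS, and in LPS or PB1 alone against CTR. Of all transcripts tested there, 25.1%, 17.6%, 16.8% and 20.9% were called in either direction, in that order. In LPS + PB1 against CTR 2 of 6 were lower (8.52% of all transcripts), and in LPS + PB1 against PB1 1 of 5 (14.9%). Nothing is read from these counts. DUSP4, a phosphatase that switches off MAP kinases, fell in LPS + PB1 against CTR (log2 -1.67, SE 0.15, limma adjusted p 2.73e-05), LPS against CTR (log2 -1.19, SE 0.18, limma adjusted p 0.000647) and PB1 against CTR (log2 -1.64, SE 0.17, limma adjusted p 6.65e-06). Its signal averaged 17.3 ± 1.65 in LPS + PB1, 24.5 ± 5.33 in LPS, 18.3 ± 4.0 in PB1 and 56.5 ± 11.2 in CTR (SD, n = 4 each), so that CTR was the highest group as for EVI2A. SPRY2, a brake on RAS signalling, rose in PB1 against CTR (log2 1.34, SE 0.13, limma adjusted p 5.52e-06) and fell in LPS + PB1 against PB1 (log2 -0.99, SE 0.09, limma adjusted p 8.18e-06). SPRY2 also rose in LPS + PB1 against LPS (log2 0.60, SE 0.15, limma adjusted p 0.0141), a call lost without LPS + PB1 replicate 1 or 3 or LPS replicate 1 or 2 (0.50 to 0.58). The call was also lost in replicates 3 and 4 only (0.31) and with the means of replicate pairs (limma adjusted p 0.193). The list's count in that comparison was 2, and 1 without LPS + PB1 replicate 1 or 3 or LPS replicate 2. Medians of the list lay between -0.33 and 0.14.

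**Figure D3:**
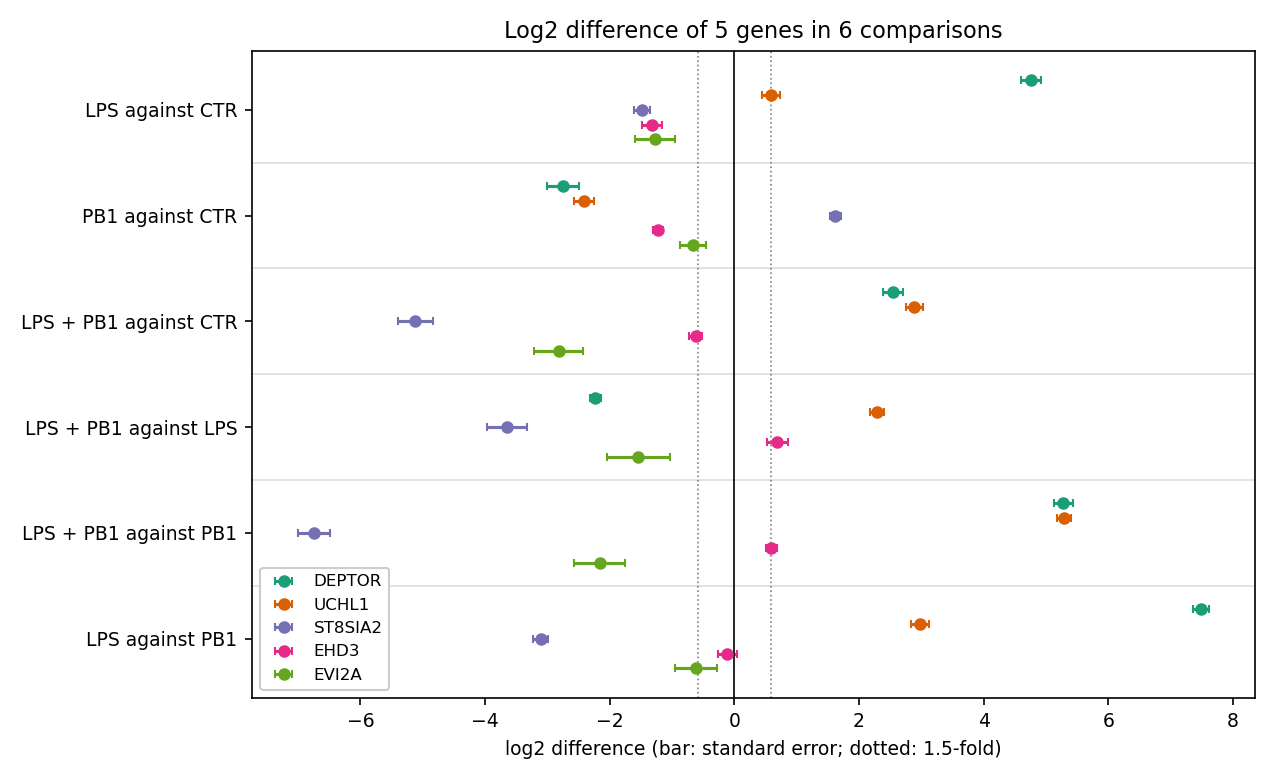
Log2 difference of the 5 genes in 6 comparisons between groups, with bars for the standard error from limma and dotted lines at the 1.5-fold limit. UCHL1 in LPS against CTR (0.59) and EHD3 in LPS + PB1 against PB1 (0.59) lie at the limit, and ST8SIA2 reaches -6.75.

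With the 4 groups, the PB1 difference can be read with LPS present (LPS + PB1 against LPS) and without it (PB1 against CTR). For this purpose one normalization over the 16 libraries was used, and these values too are linear combinations of those that chose the genes. UCHL1 had a PB1 difference of 2.29 with LPS and -2.40 without it. ST8SIA2 had -3.65 with LPS and 1.62 without it, and EHD3 had 0.69 with LPS and -1.21 without it. For these 3 genes the libraries compared were fully apart in both cases, in opposite directions. Of all transcripts tested, 34.7% did not overlap in LPS + PB1 against LPS and 42.2% in PB1 against CTR. The share apart in both with opposite directions is not given here, so nothing is read from the count of genes. DEPTOR kept its direction, with -2.23 with LPS and -2.74 without it, as did EVI2A, with -1.54 and -0.67. The LPS difference turned its sign in EHD3 alone of the 5, with 0.57 with PB1 and -1.33 without it. For UCHL1 it was 5.27 with PB1 and 0.57 without it, and for ST8SIA2 -6.77 and -1.49.

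If the 2 single-agent differences had simply multiplied, the level in LPS + PB1 can be computed from the other 3 groups. For DEPTOR the observed geometric mean was 41.4, against 29.0 so computed, a log2 departure of 0.51 (SE 0.20) that became -0.22 with a pseudocount of 1. For UCHL1 it was 360 against 13.9 (log2 4.70, SE 0.21). For ST8SIA2 it was 0.713 against 27.7 (log2 -5.28, SE 0.30). For EHD3 it was 88.2 against 23.6 (log2 1.90, SE 0.19), and for EVI2A 1.46 against 2.68 (log2 -0.88, SE 0.55). UCHL1 and ST8SIA2 therefore departed most, in opposite directions, and DEPTOR and EVI2A least. Over all transcripts, 45.2% of 4651 were called for this interaction (adjusted p not above 0.05), and nothing is read from the members' calls.

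**Figure D4:**
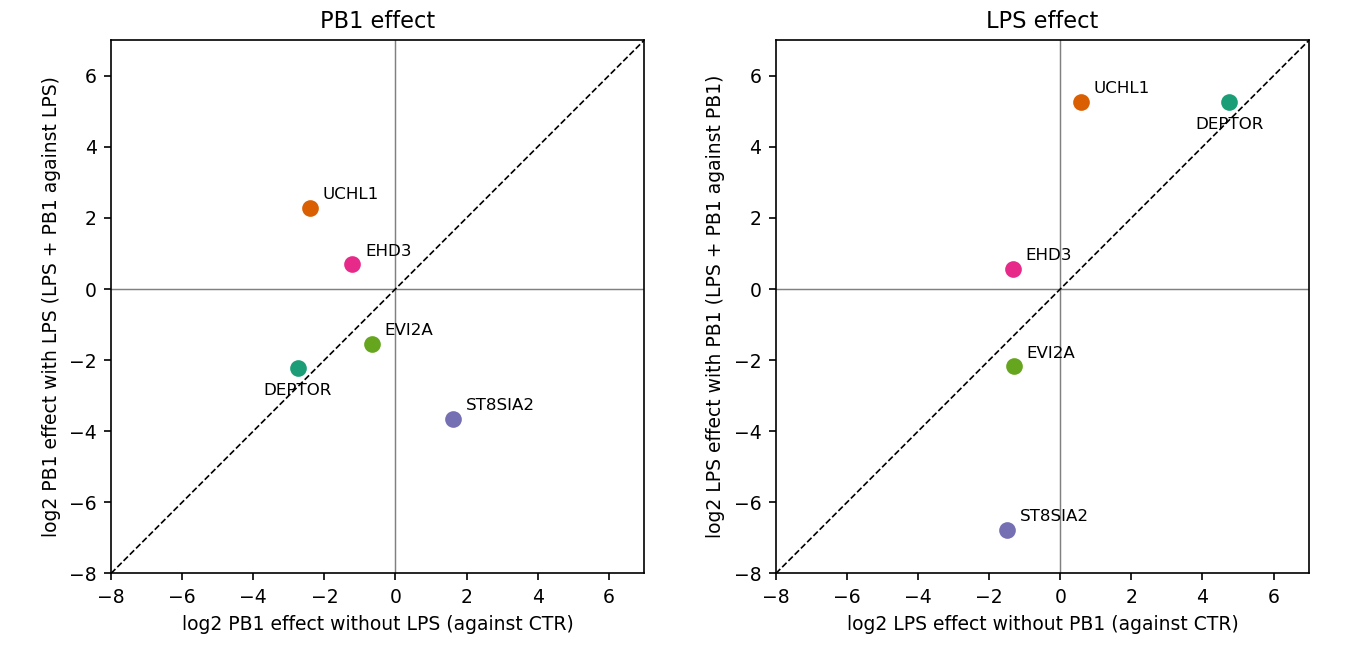
Log2 difference with PB1 (left) and with LPS (right) for the 5 genes, in the absence of the other agent (horizontal axis) and in its presence (vertical axis), with a dashed line of equality. UCHL1, ST8SIA2 and EHD3 lie in a quadrant of opposite signs for PB1, whereas DEPTOR (-2.74 and -2.23) lies near the line.

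The 25 differences kept their sign within replicates 1 and 2 and within replicates 3 and 4, each pair taken alone. Where the groups compared did not overlap, as in all but EVI2A in LPS + PB1 against LPS, this outcome was fixed in advance. The genes were also chosen on these comparisons, so nothing is read from the kept signs, and the sizes are a description. ST8SIA2 had close values in the 2 pairs, with -6.69 and -6.84 for LPS + PB1 against PB1 and -5.16 and -5.12 for LPS + PB1 against CTR. Both comparisons rest on LPS + PB1 libraries of 1 to 4 reads. Their signal was 0.45 and 1.12 in replicates 1 and 2, a spread that the pair values do not show. With a pseudocount of 1 over the 4 replicates the ST8SIA2 differences were -5.5 and -3.89, so their size depends on the handling of low values. DEPTOR in LPS against CTR was 4.36 in replicates 1 and 2 and 5.14 in replicates 3 and 4, and 5.25 and 5.27 in LPS + PB1 against PB1. The last 2 values rest on PB1 libraries of 3 to 4 reads. With a pseudocount of 1 over the 4 replicates, DEPTOR in LPS + PB1 against PB1 was 4.37 (main 5.28). Its PB1 against CTR difference was then -1.99 (main -2.75), so these sizes too depend on the handling of low values. The 3 largest gaps between the pairs were in EVI2A, with -3.18 and -1.17 in LPS + PB1 against PB1, -3.64 and -2.04 in LPS + PB1 against CTR and -1.95 and -0.64 in LPS against CTR. EHD3 in LPS against CTR was -1.53 and -1.13. LPS against PB1 had no common sign in EHD3 (-0.37 and 0.13) and in EVI2A (-1.5 and 0.24).

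**Figure D5:**
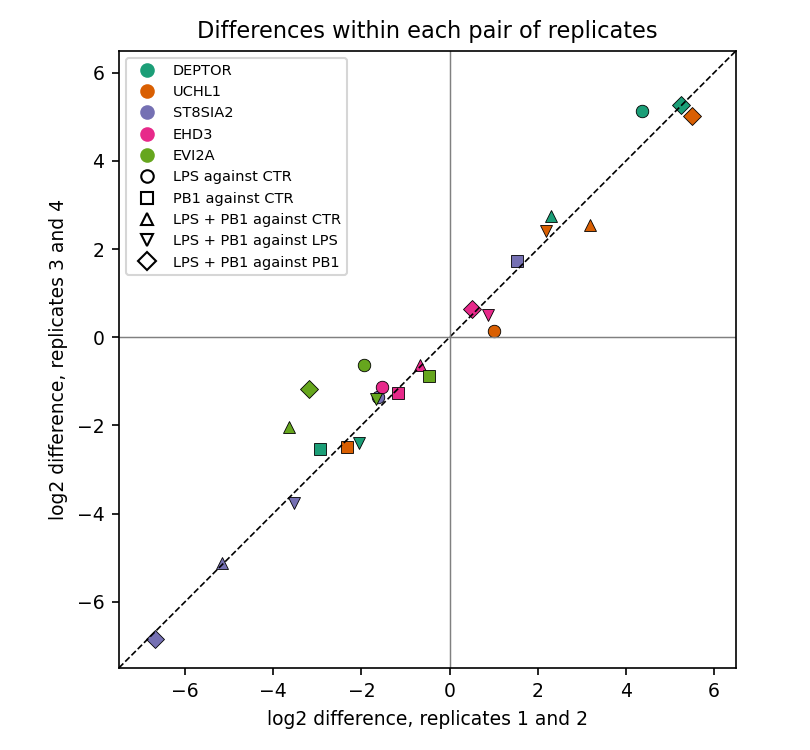
Log2 differences of the 5 genes in the 5 comparisons, from replicates 1 and 2 (horizontal axis) and from replicates 3 and 4 (vertical axis), with colour for the gene, shape for the comparison and a dashed line of equality. The 25 points lie in quadrants of equal sign, which was fixed in advance wherever the groups compared did not overlap. The farthest from the line is EVI2A in LPS + PB1 against PB1 (-3.18 and -1.17).

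The 69 transcripts called in all 5 comparisons fell into 15 combinations of directions, and each of the 5 genes had a different one. UCHL1 shared its combination with 8 other transcripts, of which TIMP3, an inhibitor of metalloproteinases, has a symbol. DEPTOR shared its own with 7 others, among them C3 (complement component), MFGE8 (a bridge to apoptotic cells) and BHLHE40 (a transcriptional repressor). ST8SIA2 was with 6 others, including CTSC, a lysosomal protease, and EVI2A and EHD3 with 4 others each, none with a symbol. The limits of a call do not by themselves set the 5 genes apart, since 21 of the 69 transcripts carried a symbol. The genes with a symbol just outside the fold limit were SFRP1 (-0.57 in LPS + PB1 against LPS), PPARG (-0.56 in LPS + PB1 against CTR) and SOX9 (0.55 in LPS against CTR). They were called in the other 4 comparisons. Of the 5 genes, EHD3 (0.59) and UCHL1 (0.59) lay nearest inside the limit by their smallest difference. EVI2A (-0.67) followed, then ST8SIA2 (-1.48) and DEPTOR (-2.23).

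Likeness of pattern was measured by Pearson's r of log2 signal over the 16 libraries, which share 4 groups, and is a description with no test. Of 4650 transcripts, 19 had an r of at least 0.95 with DEPTOR, 20 with UCHL1, 12 with ST8SIA2 and none with EHD3 or EVI2A. The most similar genes with a symbol were C3 (0.975), MFGE8 (0.969) and EPHA3 (0.958) for DEPTOR. For UCHL1 they were ID3 (0.982), SOX9 (0.970) and NFE2L1 (0.954), and for ST8SIA2 CTSC (0.979), MSTN (0.968) and NIPSNAP1 (0.951). EHD3 was most like HMGN4 (0.922), FDFT1 (0.920) and CCT2 (0.888), and for EVI2A the values of SCIN (0.890) and RGS17 (0.877) are reported here. Some of these genes were very low in a group, where the added read weighs heavily. EPHA3 averaged 0.197 in PB1, and SCIN 0.727 and RGS17 0.926 in LPS + PB1. Pearson's r also leaves out the size of differences. NFE2L1 averaged 1268 in LPS + PB1 and 686 in PB1, and UCHL1 361 and 9.40. Complement C3 averaged 112 ± 73.0 in LPS + PB1, 875 ± 372 in LPS, 3.82 ± 1.46 in PB1 and 21.5 ± 1.08 in CTR, and ID3, an inhibitor of basic helix-loop-helix factors, averaged 476 ± 31.8 in LPS + PB1, 48.7 ± 11.6 in LPS, 6.31 ± 0.603 in PB1 and 33.1 ± 3.55 in CTR (SD, n = 4 each). CTSC averaged 53.2 ± 11.1 in LPS + PB1, 220 ± 45.7 in LPS, 1125 ± 62.4 in PB1 and 553 ± 133 in CTR (SD, n = 4 each). Among the members, UCHL1 and ST8SIA2 ran in opposite directions (r -0.96), ST8SIA2 and EVI2A had an r of 0.81, DEPTOR and UCHL1 of 0.72, and EHD3 had values between -0.16 and 0.29 with the others.

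The 5 genes are on 5 chromosomes, and the nearest genes of the table with a symbol are given here for each side. Predicted transcripts, which carry no symbol, were not placed, so nearer genes may be in the table. Up to 29 annotated genes lie between a member and the neighbour given. CCN3, a matricellular protein 210 kb before DEPTOR, rose in LPS + PB1 against CTR (log2 2.38, SE 0.14, limma adjusted p 2.81e-06) and in LPS + PB1 against PB1 (log2 0.69, SE 0.10, limma adjusted p 0.000313), where DEPTOR was higher too. It also rose in PB1 against CTR (log2 1.68, SE 0.12, limma adjusted p 2.27e-07) and in LPS + PB1 against LPS (log2 2.21, SE 0.15, limma adjusted p 1.28e-05), where DEPTOR was lower. CCN3 averaged 103 ± 14.0 in LPS + PB1, 22.4 ± 3.95 in LPS, 64.2 ± 2.85 in PB1 and 20.1 ± 3.21 in CTR (SD, n = 4 each). MRPL13, 140 kb after DEPTOR, was not called in the 5 comparisons. STON1, an endocytic adaptor 17.5 kb before EHD3, fell in LPS + PB1 against CTR (log2 -0.71, SE 0.09, limma adjusted p 0.000288), where EHD3 was lower too. It also fell in LPS + PB1 against LPS (log2 -0.74, SE 0.11, limma adjusted p 0.00141), where EHD3 was higher, and both calls were lost with the means of replicate pairs. A fall in LPS + PB1 against PB1 (log2 -0.60, SE 0.09, limma adjusted p 0.000351) was at the fold limit. It lost its call without LPS + PB1 replicate 2 or PB1 replicate 1 or 2 (-0.57 to -0.58) and in replicates 3 and 4 only (-0.5). STON1 averaged 27.7 ± 1.13 in LPS + PB1, 46.5 ± 6.51 in LPS, 42.5 ± 2.22 in PB1 and 46.0 ± 2.10 in CTR (SD, n = 4 each). LBH on the other side of EHD3, PDS5A after UCHL1, and MRPL46 and NR2F2 beside ST8SIA2 were not called in any of the 5 comparisons, at distances of 355 kb or more. DYNLL2, 329 kb before EVI2A, was called in 1 of the 5 comparisons (LPS + PB1 against CTR, log2 0.72), and TEC before UCHL1 was too low to be tested.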

How the data were processed

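RNA of HD11 cells was sequenced by the authors from TruSeq libraries (4 per group, 16 in all). Reads were aligned with HISAT2 to GRCg7b and counted with HTSeq, per the labels and the methods. Their versions are not repeated here. What the authors deposited is a signal per transcript rather than plain counts. In each library 100% of the values equal the number of reads plus 1, times a step of 2.97 to 5.53 of that library, rounded down, and the scaling is not given in the sources used here. Deposited totals were 12543666 to 23107935 per library. Of the 6492 transcripts, 1697 were matched by accession to a symbol in RefSeq's table of GRCg7b. The 4790 predicted transcripts carry no symbol, so transcripts of a named gene may be missing from its value.

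Reads were recovered by dividing by the step and were used for the low-value filter (the filterByExpr rule, minimum count 10 and minimum total 15), for depth and for intervals. The deposited signal of transcripts that passed was TMM-normalized and scaled to 1e+06, with no further pseudocount, and log2 values of the groups compared were fitted with limma 3.58.1 (lmFit, then eBayes with trended variance, in R 4.3.3), without a replicate block. The script was tested on simulated data with independent libraries, so that test does not cover the likeness within replicate pairs seen in the real data. Levels and the interaction come from 1 normalization over the 16 libraries (4651 transcripts).

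The members and the gene lists were chosen with earlier results of these data known. The genes named are the 5 members, up to 3 called genes of each list, the 3 genes with a symbol most like each member, and the nearest genes of the table with a symbol. Same-numbered libraries of LPS + PB1 and LPS deviated together (correlations of 0.46 to 0.56 in the 4 pairs). The other comparisons had a pair at 0.02 or below. This pairing is seen in the data only and is not described in the labels. Adjusted p-values are Benjamini-Hochberg values over all transcripts tested. The alternatives were RLE size factors, no filter, a pseudocount of 1, a replicate block, all libraries in 1 fit, each library left out, each pair of replicates alone and the means of these pairs, and, chosen after seeing the data, TMM on the reads before the filter. Promoter sequences were not used here. A gene of the macrophage list and a gene most like EVI2A are not reported here.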

Additional observations from a re-analysis of the deposited data

Results flagged for a closer look

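In each of the 20 combinations of gene and group, the 4 libraries were searched for one that stood apart from the other 3 by more than Dixon's 95% limit, which chance alone gives in about 1 of 20. It was found for DEPTOR in LPS + PB1, where replicate 2 had a signal of 45.2 and the others 40.0 to 40.5, and for EVI2A in CTR, where replicate 2 had 13.0 and the others 9.5 to 9.9. Neither moved a group across another, and what set these libraries apart was not tested.

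For 3 genes the libraries of the groups compared were fully apart in opposite directions with one agent, depending on the other, and these differences between effects were not tested because the genes had been chosen on the same contrasts. The share of all transcripts with such a pattern is not given here, and the pattern is not read as particular to these genes. The log2 PB1 difference of UCHL1 was 2.29 with LPS and -2.40 without it. That of ST8SIA2 was -3.65 with LPS and 1.62 without it. That of EHD3 was 0.69 with LPS and -1.21 without it. The log2 LPS difference of EHD3 was 0.57 with PB1 and -1.33 without it.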

How the results depend on the processing

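Over the 25 member differences of the 5 comparisons, 387 of 424 values under the alternatives kept direction and call, 37 lost the call and none turned its sign. The genes were chosen as called in these comparisons, and the alternatives refit the same libraries or a part of them. Kept calls and signs are therefore largely set by the choice and are no support for the differences. The losses were 14 in EVI2A, 13 in EHD3 and 10 in UCHL1. EVI2A in LPS + PB1 against LPS could not be fitted in replicates 1 and 2 only, where it failed the filter. Outside these comparisons, EHD3 in LPS against PB1 was 0.15 in replicates 3 and 4 only and 0.02 without LPS replicate 2 (main -0.11), EVI2A in LPS against PB1 was 0.25 in replicates 3 and 4 only (main -0.62), and the DEPTOR interaction was -0.22 with a pseudocount of 1 (main 0.51). The causes were not tested. With TMM on the reads before the filter, UCHL1 in LPS against CTR and EHD3 in LPS + PB1 against PB1 were 0.58 each and lost their calls.

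For the 26 called differences of other genes given above, 424 of 442 values kept the call, 18 lost it and 0 turned their sign. These differences were included because they were called, so this tally too is a description.

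Counts of called transcripts moved by over 1.5 times when the means of replicate pairs were used as 2 samples per group: 393 in LPS against CTR (758), 293 in LPS + PB1 against CTR (795), 129 in LPS + PB1 against LPS (800) and 940 in the interaction (2100), with fewer samples in the fit. In replicates 3 and 4 only, LPS + PB1 against CTR had 1253. Leaving out each library gave 689 to 829 in LPS against CTR, 939 to 976 in PB1 against CTR, 716 to 893 in LPS + PB1 against CTR, 738 to 800 in LPS + PB1 against LPS, 1264 to 1377 in LPS + PB1 against PB1, 1122 to 1198 in LPS against PB1 and 1890 to 2135 in the interaction.

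With the replicate block, the counts were 716, 945, 781, 926, 1316 and 1133 in these 6 comparisons and 2137 in the interaction. Of the member calls in the 5 comparisons the block ended that of UCHL1 in LPS against CTR (0.59, SE 0.19). Same-numbered libraries deviated together in LPS + PB1 and LPS, where the block changed no member call.

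Count tests with edgeR and DESeq2, listed among the alternatives, were not run here. Depth limits DEPTOR in PB1, ST8SIA2 in LPS + PB1 and EVI2A, which had at most 54 reads in a library.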
